A study of Mus musculus with 12 samples.

Results

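Epithelial cells that turn into mesenchymal cells give up their junctions, loosen from their neighbours and take on the shape, cytoskeleton and matrix of migratory cells. A small set of DNA-binding proteins drives this switch in the embryo, in wound repair and in carcinomas: the Zeb and Snail zinc-finger proteins, which repress epithelial genes such as Cdh1 (E-cadherin), the Twist helix-loop-helix proteins and the homeobox protein Prrx1. In breast tumors these genes are known from the claudin-low and metaplastic kinds, and also from the fibroblasts, endothelial cells and macrophages that surround tumor cells. The 10 genes described here are 7 such transcription factors (Zeb1, Zeb2, Snai1, Snai2, Twist1, Twist2 and Prrx1) and 3 proteins by which mesenchymal cells are recognised (the intermediate filament Vim, the cadherin Cdh2 and the matrix protein Fn1). They were taken by symbol from the 47593 genes of the series, and all 10 were found.

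The values come from RNA sequencing of 12 mammary tumors from 9 female MADM-mutant mice, with no normal gland and no treatment. The genotype in the labels is MADM RG;GR alleles on a mixed background. Mosaic analysis with double markers (MADM) uses a pair of cassettes on chromosome 11, TG11ML and GT11ML, so that Cre recombination in a dividing cell leaves a GFP-labelled daughter that lacks both Brca1 and p53 within a heterozygous animal. The mutant chromosome carries the Brca1 flox and p53 KO alleles, and Cre is driven by MMTV-Cre, a promoter active in mammary epithelium, so recombination is directed to that epithelium. The mouse ages at tumor collection are not given in the sources used here. A piece of whole tumor was homogenised, so RNA of tumor cells and of the tissue around them was measured together. A single tumor came from each of 7 mice, 1 mouse gave tumors 3 and 4, and 1 mouse gave tumors 10, 11 and 12. Values are TPM, in which the reads of a gene are divided by its length and each tumor is scaled to the same total, so levels can be compared between genes. TPM keeps no read number, and the depth behind each value is therefore unknown.

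A pair of tumors went against the epithelial label. Epcam, an adhesion protein of epithelial cells, was listed at 0 in tumor 2, had 2.03 TPM in tumor 8 and ranged from 239 to 1004 TPM over the other 10. Cdh1 had 0.116 TPM in tumor 2, 3.77 TPM in tumor 8 and 82.6 to 302 TPM elsewhere. Tumor 2 also had 609 TPM of Cd79a, a subunit of the B cell receptor, against at most 41.6 TPM elsewhere. Results that rest on tumor 2 are therefore also given without it. The number of genes above 0 ranged from 21415 to 23443 per tumor, and the mitochondrial genes took 3.66% to 7.40% of the TPM. Brca1 (6.93 to 24.7 TPM) and Trp53 (30.2 to 74.2 TPM) were listed in every tumor, and a value per gene does not separate the mutant alleles from intact ones. All 10 genes averaged at least 1 TPM over the tumors, as did 16779 genes of the series. They also did so with tumor 8 left out, with the lowest mean at 1.07 TPM for Twist2.

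The promoter sequences of 5 genes are shown because the Snail and Zeb proteins bind the E-box CAGGTG, which reads CACCTG on the other strand, and the genes described below include both the factors and the epithelial genes they are known to repress. The 250 bases before the RefSeq start site (GRCm38.p6) were searched on both strands. Snai1 (chr2:167537945-167538194, plus strand) held 1 E-box, which began 126 bases before the start. Twist1 (chr12:33957421-33957670, plus strand) and Twist2 (chr1:91801211-91801460, plus strand) held none. Epcam (chr17:87635729-87635978, plus strand) held 2, which began 187 and 19 bases before the start, and Rab25 (chr3:88548280-88548529, minus strand), a GTPase of epithelial membrane recycling, held 2, which began 64 and 53 bases before it. The sequences run 5′ to 3′ toward the start site, with the E-boxes in capitals.
Snai1: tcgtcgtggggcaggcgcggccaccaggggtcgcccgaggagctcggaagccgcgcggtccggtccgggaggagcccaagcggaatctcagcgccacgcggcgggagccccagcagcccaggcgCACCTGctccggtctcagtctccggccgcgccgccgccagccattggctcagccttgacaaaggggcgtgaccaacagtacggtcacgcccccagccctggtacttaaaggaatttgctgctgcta
Twist1: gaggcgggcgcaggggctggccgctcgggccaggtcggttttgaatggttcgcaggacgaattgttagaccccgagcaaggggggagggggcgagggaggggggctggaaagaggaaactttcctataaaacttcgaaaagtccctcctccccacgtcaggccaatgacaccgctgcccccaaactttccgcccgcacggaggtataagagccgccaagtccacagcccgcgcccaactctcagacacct
Twist2: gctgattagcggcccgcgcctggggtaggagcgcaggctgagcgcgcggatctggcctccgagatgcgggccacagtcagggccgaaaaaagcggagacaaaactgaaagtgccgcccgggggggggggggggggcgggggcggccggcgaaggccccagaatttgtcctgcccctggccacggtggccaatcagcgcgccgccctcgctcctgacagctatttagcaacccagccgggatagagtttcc
Epcam: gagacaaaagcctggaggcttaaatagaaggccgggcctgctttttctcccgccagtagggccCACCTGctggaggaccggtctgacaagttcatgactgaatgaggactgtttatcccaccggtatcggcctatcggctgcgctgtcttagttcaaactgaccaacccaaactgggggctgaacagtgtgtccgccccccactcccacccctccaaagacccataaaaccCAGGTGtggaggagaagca
Rab25: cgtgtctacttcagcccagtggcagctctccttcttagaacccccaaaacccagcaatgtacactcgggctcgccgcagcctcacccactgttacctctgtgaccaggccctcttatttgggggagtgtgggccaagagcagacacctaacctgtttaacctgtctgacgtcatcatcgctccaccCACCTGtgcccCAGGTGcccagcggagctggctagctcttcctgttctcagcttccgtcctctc
Of all 27025 genes with such a window, 17.1% held the E-box at least once. A window was found for 6 of the 10 genes, of which 1 (Snai1) held it, and for 12 of the 20 epithelial genes described below, of which 7 (58.3%) did. These matches are a description of letters and no binding was measured.

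In most tumors the 2 abundant members were Vim and Fn1, and the transcription factors were expressed at far lower levels. Over the 12 tumors the median was 408 TPM for Vim and 330 TPM for Fn1. Among the factors it was 23.9 TPM for Snai1, 13.2 TPM for Zeb2, 8.51 TPM for Prrx1, 5.25 TPM for Twist1, 4.26 TPM for Zeb1, 1.96 TPM for Snai2 and 0.728 TPM for Twist2, and for Cdh2 it was 1.24 TPM. Within the gene pairs, Zeb2 was above Zeb1 in 12 of 12 tumors and Snai1 was above Snai2 in 11, with tumor 9 as the exception. Twist1 was above Twist2 in 10 tumors, and Twist2 was the higher of the pair in tumors 6 and 8.

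**Figure D1:**
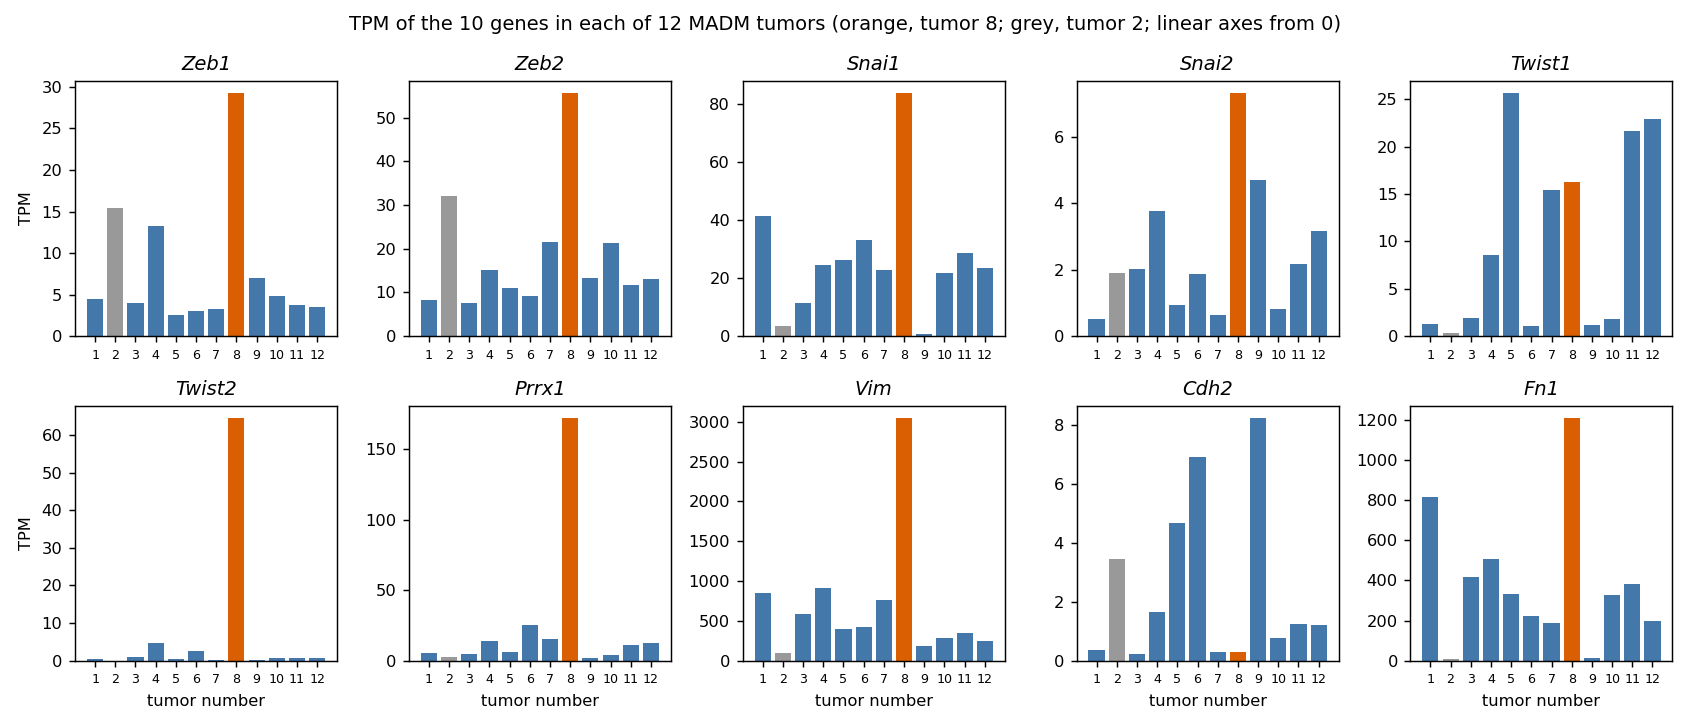
TPM of each of the 10 genes (y axes, linear and starting at 0) in tumors 1 to 12 (x axes); each bar is a tumor, with tumor 8 in orange and tumor 2 in grey. Tumor 8 has the tallest bar for 8 of the 10 genes, Twist1 is high in several tumors, and Cdh2 is highest in tumor 9.

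Tumor 8 stood apart in these genes. It had the highest TPM of the 12 tumors for 8 of the 10 genes, where 11.8% of the 16779 genes averaging at least 1 TPM were highest in that tumor. None of the 10 was lowest there, against 8.09% of all genes. On the log2(TPM + 1) scale, 9 of the 10 genes were raised at least 2-fold over the median of the other 11 tumors, against 10.6% of all genes, and 6 of the 10 were raised at least 4-fold, against 3.08%. Without tumor 2, Twist1 was no longer among those 6, at a difference of 1.71. None of the 10 was lowered 2-fold, against 8.73%, although Cdh2 passed that line under 2 other settings given below. The median difference of the 10 genes was 2.29 on this scale, and that of all genes was −0.04. Because tumor 8 is a single tumor that was singled out with results of these data known, these values are a description and have no replicate check or p. In bulk tissue, more cells of a type and more RNA per cell cannot be told apart.

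Zeb1 (ENSMUSG00000024238, chromosome 18 from 5591860 to 5775467 in GRCm38, plus strand), a repressor of E-cadherin and of the miR-200 family, ranged from 2.57 TPM in tumor 5 through a median of 4.26 TPM to 29.3 TPM in tumor 8. Tumors 2 and 4 followed at 15.4 and 13.3 TPM, and the other 9 tumors did not exceed 7.03 TPM. Tumor 8 had 7.25 times the median of the other 11 tumors and exceeded every other tumor. Over mice, Zeb1 had 8.63 ± 8.72 TPM (SD, n = 9).

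Zeb2 (ENSMUSG00000026872, chromosome 2 from 44983632 to 45117395, minus strand), the close relative of Zeb1 that macrophages and other leukocytes also express, ranged from 7.68 TPM in tumor 3 through 13.2 TPM to 55.6 TPM in tumor 8. Tumor 2 was second at 32.2 TPM. Tumor 8 had 4.26 times the median of the others. Zeb2 was never low: no tumor was under 7.68 TPM, and over mice it had 19.8 ± 15.4 TPM (SD, n = 9).

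Snai1 (ENSMUSG00000042821, chromosome 2 from 167538195 to 167542814, plus strand), whose product Snail represses Cdh1 through E-boxes, ranged from 0.874 TPM in tumor 9 through 23.9 TPM to 83.6 TPM in tumor 8. Tumors 2 and 9 were the low ones, at 3.31 and 0.874 TPM, and 9 tumors lay between 11.4 and 41.2 TPM. Tumor 8 had 3.57 times the median of the others and 2.03 times tumor 1, the next. Its mean over mice was 28.2 ± 24.5 TPM (SD, n = 9).

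Snai2 (ENSMUSG00000022676, chromosome 16 from 14705852 to 14709385, plus strand), which encodes Slug and is known in basal mammary cells, ranged from 0.526 TPM in tumor 1 through 1.96 TPM to 7.31 TPM in tumor 8. Tumor 9, the lowest in Snai1, was second in Snai2 at 4.71 TPM. Tumor 8 had 3.83 times the median of the others but only 1.55 times tumor 9. Over mice Snai2 had 2.54 ± 2.20 TPM (SD, n = 9).

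Twist1 (ENSMUSG00000035799, chromosome 12 from 33957671 to 33959829, plus strand), a factor of mesoderm formation and metastasis models, ranged from 0.306 TPM in tumor 2 through 5.25 TPM to 25.7 TPM in tumor 5. It was high, at 15.4 to 25.7 TPM, in tumors 5, 7, 8, 11 and 12, intermediate at 8.60 TPM in tumor 4, and low in the other 6 tumors, at 0.306 to 1.89 TPM. Tumor 8 had 16.3 TPM and was only the fourth highest of the 12. Its value was 8.60 times the median of the other 11 tumors, and the log2(TPM + 1) difference was 2.58. It was 1.71 without tumor 2, when the median of the others falls between 1.89 and 8.60 TPM, and 3.04 with 0.1 in place of 1 added to the TPM. Tumors 5, 7, 11 and 12, in which Epcam lay between 239 and 850 TPM, thus had Twist1 levels close to or above that of tumor 8.

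Twist2 (ENSMUSG00000007805, chromosome 1 from 91801461 to 91848028, plus strand), a relative of Twist1 known from dermal and bone precursors, was listed at 0 in tumor 2, had a median of 0.728 TPM and reached 64.6 TPM in tumor 8. Tumor 4 followed at 4.83 TPM and tumor 6 at 2.45 TPM, and the other 9 tumors stayed under 1 TPM. Tumor 8 was 13.4 times as high as tumor 4, and the log2(TPM + 1) difference from the median of the others was 5.33. Only 0.131% of all genes had a difference as large or larger. The ratio to that median, 0.635 TPM, was 102 and rests on a value under 1 TPM.

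Prrx1 (ENSMUSG00000026586, chromosome 1 from 163245119 to 163313710, minus strand), a homeobox factor of limb and craniofacial mesenchyme that fibroblasts also express, ranged from 2.14 TPM in tumor 9 through 8.51 TPM to 172 TPM in tumor 8. Tumor 6 followed at 25.5 TPM and tumor 7 at 15.2 TPM. Tumor 8 had 29.2 times the median of the others and 6.74 times tumor 6. The log2(TPM + 1) difference was 4.65, which 0.209% of all genes reached or passed.

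Vim (ENSMUSG00000026728, chromosome 2 from 13573927 to 13582826, plus strand), the intermediate filament of mesenchymal cells and of many carcinoma lines, ranged from 92.7 TPM in tumor 2 through 408 TPM to 3049 TPM in tumor 8. Tumor 4 followed at 917 TPM and tumor 1 at 856 TPM. Tumor 8 had 7.74 times the median of the others and 3.33 times tumor 4. Vim was not a low-level gene in any tumor, and the 10 tumors other than 2 and 8 lay between 182 and 917 TPM.

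Fn1 (ENSMUSG00000026193, chromosome 1 from 71585520 to 71653200, minus strand), which encodes the matrix glycoprotein fibronectin, ranged from 6.22 TPM in tumor 2 through 330 TPM to 1211 TPM in tumor 8. Tumor 9 was nearly as low as tumor 2, at 15.5 TPM, while the other 9 tumors lay between 190.0 and 815 TPM. Tumor 8 had 3.71 times the median of the others but only 1.49 times tumor 1. Over mice Fn1 had 395 ± 391 TPM (SD, n = 9).

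Cdh2 (ENSMUSG00000024304, chromosome 18 from 16588877 to 16809246, minus strand), which encodes N-cadherin and whose gain in place of E-cadherin is the textbook cadherin switch, did not follow the others. It ranged from 0.225 TPM in tumor 3 through 1.24 TPM to 8.24 TPM in tumor 9, followed by tumor 6 at 6.91 TPM and tumor 5 at 4.66 TPM. Tumor 8, at 0.290 TPM, held rank 10 of 12. Its difference from the median of the others was −0.81 on the log2(TPM + 1) scale, short of 2-fold. It was past 2-fold with 0.1 in place of 1 added to the TPM, at −1.80, and with the tumors of a mouse averaged first, at −1.24. Tumor 8 was thus low in both cadherins, since its Cdh1 was at 3.77 TPM against a median of 219 TPM in the others.

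**Figure D2:**
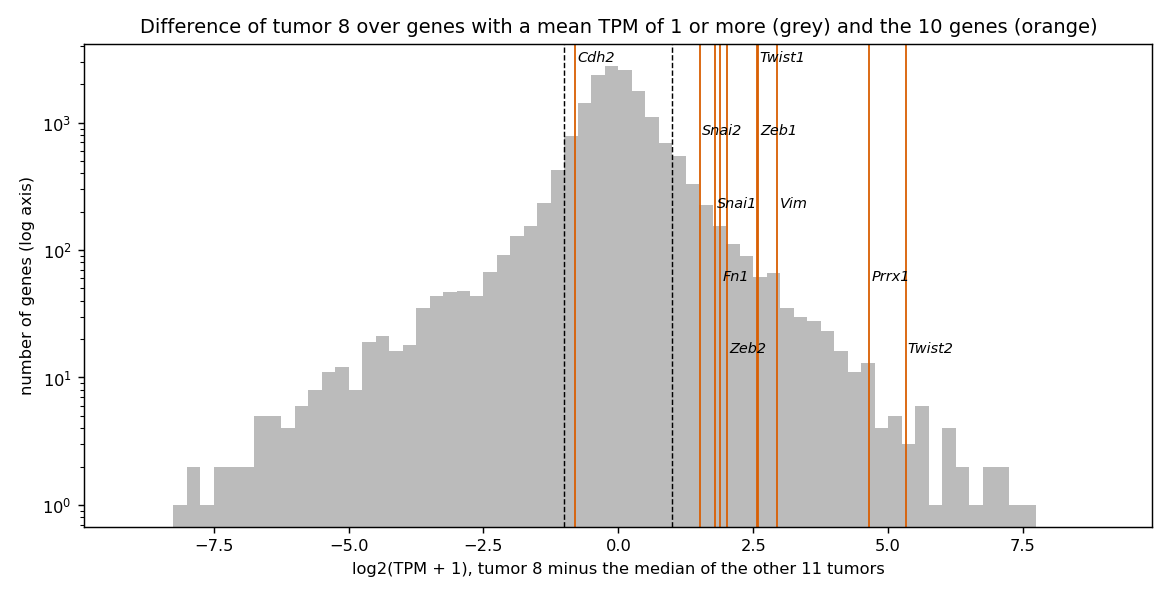
Difference in log2(TPM + 1) between tumor 8 and the median of the other 11 tumors (x axis) for the 16779 genes averaging at least 1 TPM (grey bars, number of genes on a log axis) and for the 10 genes (orange lines with names); dashed lines mark 2-fold. All but Cdh2 lie to the right of the upper dashed line, and Twist2 (5.33) and Prrx1 (4.65) lie farthest out.

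Without tumor 2 the counts in tumor 8 were the same, with 8 genes highest and 9 raised at least 2-fold, and averaging the tumors of a mouse first gave 8 and 9 as well. The tumor with the next highest count was tumor 4, with 5 raised genes (Zeb1, Twist1, Twist2, Prrx1 and Vim) and none lowered, against 7.7% and 2.56% of all genes. It was highest for none of the 10. Tumor 6 had 3 raised genes (Twist2, Prrx1 and Cdh2), against 4.46%, and 1 lowered (Twist1), against 3.99%. Tumor 2 had 3 raised genes, Zeb1, Zeb2 and, at the threshold, Cdh2, against 12.2% of all genes. It had 5 lowered genes (Snai1, Twist1, Prrx1, Vim and Fn1), against 26.4%. Tumor 9 had 5 lowered genes (Snai1, Twist1, Prrx1, Vim and Fn1), against 17% of all genes, and Cdh2 as its only raised gene, against 12.6%.

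The 10 genes did not form a single gradient over the tumors. The Pearson correlation of log2(TPM + 1) between 2 members over the 12 tumors had a median of 0.38 over the 45 pairs, of which 31 were above 0. With tumor 8 left out the median was 0.03 and 23 pairs were above 0, and with tumors 2 and 8 left out it was 0.02. The pair that stayed closest was Snai1 and Fn1, at 0.89 over 12 tumors, 0.88 without tumor 8 and 0.88 without tumors 2 and 8. Twist2 and Prrx1 went from 0.88 to 0.60 without tumor 8. Zeb1 and Zeb2 went from 0.77 over 12 tumors to 0.55 without tumor 8 and to 0.22 without tumors 2 and 8. Cdh2 and Fn1 had the lowest value, −0.61. These values are descriptive, since the tumors include 5 from 2 mice.

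The genes whose pattern over the 12 tumors was most like that of each member are given as the 3 with the highest Pearson correlation of log2(TPM + 1). They were picked as the highest among 16779 genes over only 12 tumors, which by itself gives a high r. The neighbours are therefore a description, and no link to the member was tested. For Twist2 they were Adgra2 (r = 0.99), an adhesion receptor of endothelial Wnt signalling, Gata2 and Il13ra2, and for Prrx1 they were the collagenase Mmp13 (r = 0.96), Ikbip and Bcl6b. Mmp13 had 917 TPM in tumor 8, against 0.634 to 106 TPM elsewhere. For Zeb2 they were Ptprc (r = 0.93), which encodes the leukocyte antigen CD45, Evi2a and Cd53, another leukocyte surface protein. Ptprc was at 113 TPM in tumor 8, 91.7 TPM in tumor 2 and as low as 26.2 TPM elsewhere, and the part of leukocyte RNA in the Zeb2 values was not tested.

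Fn1 was most like Efemp2 (r = 0.98), a protein of elastic fibers, Tpbg and Hspb8, and Snai1 was most like Galnt2 (r = 0.97), Itgb1, the beta-1 integrin chain that binds fibronectin, and 8030451A03Rik. Vim was most like Kdelr3 (r = 0.95) and Kdelr2, retrieval receptors of the endoplasmic reticulum, and Fxyd5. Zeb1 was most like Abcc5 (r = 0.96), Hoxb4 and Bcat1, and Twist1 most like Tgfbr3 (r = 0.89), a TGF-beta co-receptor, Vkorc1 and Rec114. For Snai2 they were Serpinb6b (r = 0.90), Gm10177 and Tcrg-C4, and for Cdh2 they were Plekhj1 (r = 0.94), H2-Ke6 and Urod. Without tumor 8 the correlations of these 30 neighbours lay between 0.79 and 0.98, and 9 of the 30 were still among the closest 3 of their member. Without tumor 2, 16 of the 30 were.

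The epithelial genes moved the other way in tumor 8. All 20 genes of a list of epithelial junction proteins, keratins and regulators were lowered at least 2-fold, with a median difference of −5.45 on the log2(TPM + 1) scale, where 8.73% of all genes were lowered. Rab25, whose promoter is printed above, was at 0.567 TPM in tumor 8 against a median of 127 TPM in the others. The splicing regulator Esrp1 was at 0.269 against 111 TPM, the transcription factor Grhl2 at 0.294 against 46.4 TPM, and the claudin Cldn4 at 2.06 against 429 TPM. Krt8, a keratin of luminal cells, had the highest level of the 20 in tumor 8, at 128 against 1576 TPM. Relative to the median of the others, Ovol1 was lowered least, at 1.01 against 5.62 TPM. The median over the 20 genes was 0.786 TPM in tumor 8, 0.162 TPM in tumor 2 and 71.3 to 158 TPM in the other 10 tumors. Their summed level was 168 TPM in tumor 8 and 5.46 TPM in tumor 2. Tumor 2 did not share the high Snai1, Twist1, Twist2, Prrx1, Vim and Fn1 of tumor 8.

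**Figure D3:**
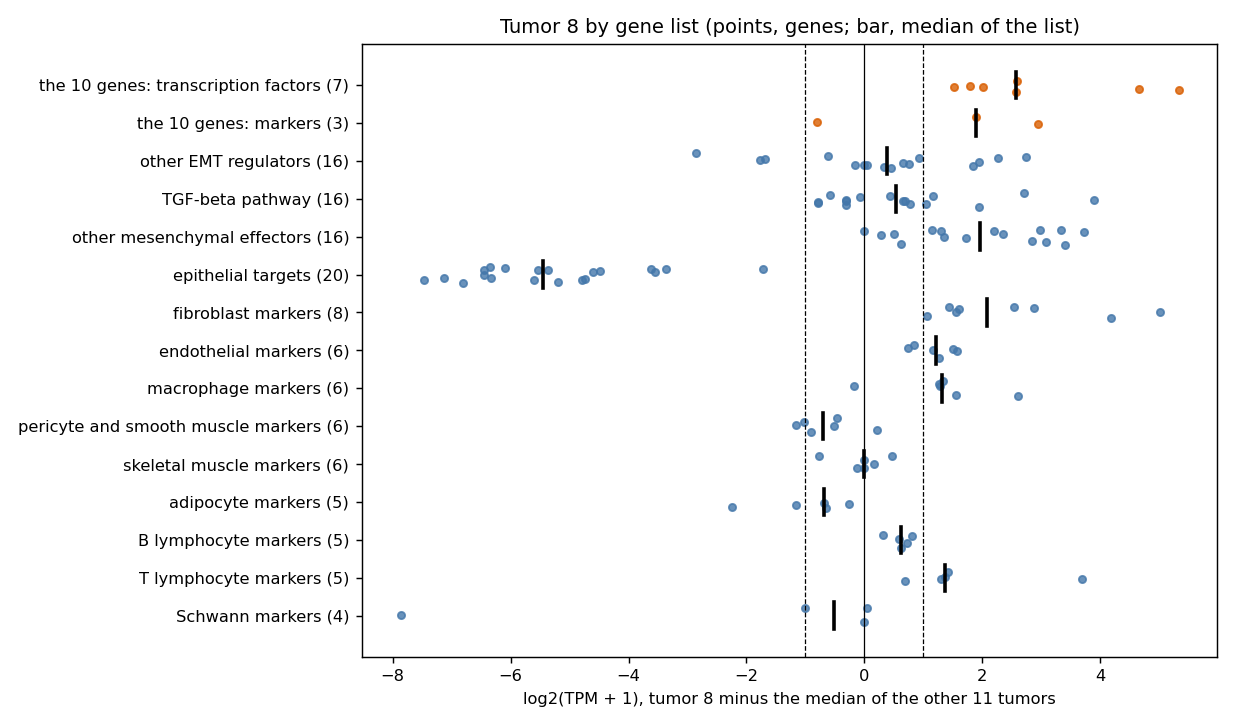
Difference in log2(TPM + 1) between tumor 8 and the median of the other 11 tumors (x axis) for each gene of 15 lists (rows, with the number of genes in brackets); points are genes, black bars list medians, dashed lines 2-fold. All 20 epithelial genes lie left of the lower dashed line, whereas the transcription factors described here and all 8 fibroblast genes lie right of the upper one.

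Other regulators of the same switch went both ways. Of 16, tumor 8 had 4 raised (Foxc2, Hmga2, Fosl1 and Prrx2), against 10.6% of all genes, and 3 lowered (Snai3, Foxc1 and Foxq1), against 8.73%. The shares are over genes averaging at least 1 TPM, a level that 12 of the 16 reached, with 3 of these 12 raised (all but Foxc2) and 3 lowered. The median difference of the 16 was 0.39, against −0.04 over all genes. Hmga2, an architectural chromatin protein, was at 127 TPM in tumor 8 against a median of 18.0 TPM in the others and a highest value of 67.8 TPM. Prrx2, the relative of Prrx1, was at 19.5 TPM against 3.27 TPM. Foxq1, another forkhead factor linked to the switch, was at 2.77 TPM against 26.4 TPM.

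Of 16 genes of the TGF-beta pathway, the best-known inducer of the switch, 5 were raised in tumor 8, against 10.6% of all genes, and none was lowered, against 8.73%, with a median of 0.54. The ligands were within 2-fold, at 96.9 against 56.2 TPM for Tgfb1, 14.7 against 8.70 TPM for Tgfb2 and 23.9 against 42.1 TPM for Tgfb3. Of the receptors, Tgfbr2 (115 against 55.5 TPM) and the co-receptor Eng (97.0 against 24.4 TPM), which endothelial cells also express, were raised. None of Smad2, Smad3, Smad4 and Smad7, the signal carriers and their inhibitor, moved 2-fold. The target gene Tgfbi (1159 against 177 TPM) was raised, as was the latent-ligand binder Ltbp1, at 79.3 TPM and a difference of 1.16.

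Of 16 other effectors of the mesenchymal state, 12 were raised, against 10.6% of all genes, and none was lowered, against 8.73%. Their median was 1.95, against −0.04 over all genes. They include the matrix cross-linker Lox (96.7 against 12.6 TPM), the fibronectin receptor chain Itga5 (350 against 32.0 TPM), S100a4 (912 against 90.0 TPM) and the gelatinase Mmp2 (215 against 26.4 TPM). The hyaluronan receptor Cd44 (348 against 287 TPM), Fap (7.90 against 4.82 TPM) and Itgb3 (40.0 against 28.0 TPM) were within 2-fold, and Spock1, which averaged under 1 TPM over the tumors, was listed at 0.

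Markers of other cell types also moved in tumor 8, where 10.6% of all genes were raised and 8.73% lowered, with a median of −0.04. All 8 fibroblast genes (Col1a1, Col1a2, Col3a1, Dcn, Lum, Pdgfra, Pdgfrb and Thy1) were raised, with a median difference of 2.07 and a summed level of 3383 TPM, against 104 to 3017 TPM in the other tumors. Of the endothelial genes 4 of 6 were raised (median 1.21; summed level 188 TPM, others 53.7 to 110 TPM). Of the macrophage genes 5 of 6 were (median 1.31; summed level 3753 TPM, others 439 to 2596 TPM), and of the T lymphocyte genes 4 of 5 were (median 1.36; summed level 65.4 TPM, others 3.26 to 81.7 TPM). The B lymphocyte genes (0 of 5 raised, median 0.62) and the skeletal muscle genes (0 of 6, median 0) stayed within 2-fold. The pericyte and smooth muscle genes (2 of 6 lowered, median −0.71), the adipocyte genes (2 of 5 lowered, median −0.68) and the Schwann cell genes (2 of 4 lowered, median −0.51) did not rise. Of the Schwann cell list the lowered genes were S100b and Sox10, and Sox10, which basal-like mammary tumors are also known to express, was at 0.358 TPM in tumor 8 against a median of 315 TPM. Of the defining markers, Ckm, Myh4 and Lep were at 0 in tumor 8. The median of the others was also 0 for Ckm and Myh4, and it was 0.203 TPM for Lep. The part of fibroblast, endothelial, macrophage and T lymphocyte RNA in the values of the 10 genes in tumor 8 was not tested.

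Tumor 4 came second to tumor 8 in Twist2 and Vim, and its fibroblast genes were also high. The median of the 8 fibroblast genes was 215 TPM in both tumors, but the genes went apart in both directions. Col1a1 had 599 TPM in tumor 4 and 269 TPM in tumor 8, and Col3a1 had 1091 and 500.0 TPM, whereas Dcn had 285 and 1732 TPM and Pdgfra 26.6 and 111 TPM. Which cells these transcripts came from cannot be told apart here, and their part in the values of the 10 genes was not tested.

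**Figure D4:**
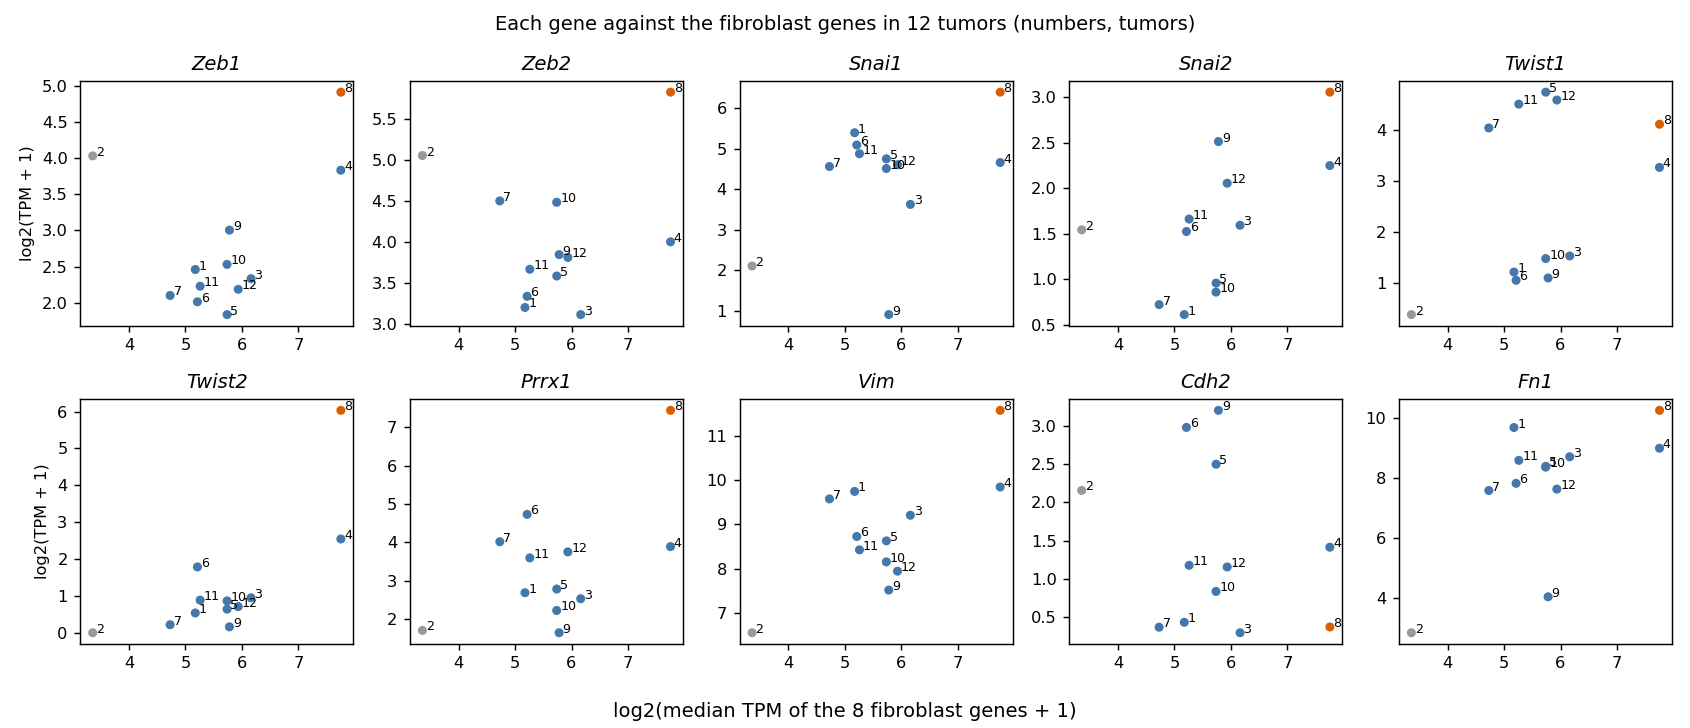
Level of each of the 10 genes in log2(TPM + 1) (y axes) against the level of 8 fibroblast genes (x axes, log2 of their median TPM + 1); each point is a tumor with its number, tumor 8 in orange and tumor 2 in grey. Tumors 4 and 8 lie farthest to the right, at 215 TPM, and tumor 2 lies farthest to the left.

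The relation of each gene with the fibroblast, endothelial and macrophage lists was tested over the 9 mice, with the tumors of a mouse averaged, as Pearson's r and Spearman's rho between the gene and the median of the list on the log2(TPM + 1) scale. Of the 30 relations none passed 0.05 after Benjamini-Hochberg adjustment over all genes (exact permutation test, two-sided), where 0.0119%, 0% and 0.0417% of all genes passed for the 3 lists. Over 9 mice this test cannot give a p below 2.8e-06, and 50317 relations were adjusted together. The smallest adjusted p of any gene in this permutation test was 0.046. A pass was therefore hardly reachable, and the lack of one does not show that a relation is absent. At an unadjusted p below 0.05 there were 6, namely 2 with the fibroblast list, 3 with the endothelial list and 1 with the macrophage list, where 11.2%, 16.1% and 16.6% of all genes passed.

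Prrx1 and the endothelial list had r = 0.83 (exact permutation p = 0.011, adjusted p = 0.27) and rho = 0.85 (exact permutation p = 0.0061, adjusted p = 0.18 over the 30 relations). Without the mice of tumors 2 and 8, the 2 farthest from the middle of each list, its r was 0.79 (exact permutation p = 0.024 over 7 mice, not adjusted). It was the only one of the 6 with an unadjusted p below 0.05 there. Vim had r = 0.82 with the endothelial list (exact permutation p = 0.011, adjusted p = 0.27), 0.73 with the fibroblast list (exact permutation p = 0.029, adjusted p = 0.31) and 0.72 with the macrophage list (exact permutation p = 0.039, adjusted p = 0.33), with rho at 0.60, 0.32 and 0.28 (exact permutation p = 0.097, 0.41 and 0.46). Without those 2 mice its r was 0.24, −0.10 and −0.38, so the relations of Vim rested on them.

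Twist2 and the fibroblast list had r = 0.76 (exact permutation p = 0.012, adjusted p = 0.27), rho = 0.55 (exact permutation p = 0.13) and r = 0.41 without the 2 mice. Fn1 and the endothelial list had r = 0.74 (exact permutation p = 0.021, adjusted p = 0.30), rho = 0.30 (exact permutation p = 0.44) and r = 0.11 without them. Several relations with the macrophage list changed sign when those mice were left out. Zeb2 went from r = −0.10 over 9 mice (exact permutation p = 0.80) to r = 0.82 over the 7 that remained (exact permutation p = 0.023). With the same list Fn1 went from 0.68 (exact permutation p = 0.056) to −0.77 (exact permutation p = 0.011), and Snai1 from 0.47 (exact permutation p = 0.21) to −0.73 (exact permutation p = 0.013), with none of these p-values adjusted. Tumor 2, high in Zeb2 and lowest in the macrophage list, was among the mice left out.

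Whether the genes differed between mice more than between tumors of a mouse was tested with limma, as a moderated F test of mouse on log2(TPM + 1) over all 16779 genes. The spread within a mouse came from the 2 mice with several tumors, which gave 3 residual degrees of freedom. Of the 10 genes 6 passed an adjusted p of 0.05, against 42.9% of all genes, and nothing particular to the 10 genes is read from this share. They were Fn1 (limma adjusted p = 0.0030), Vim (0.0065), Snai1 (0.011), Twist2 (0.020), Cdh2 (0.035) and Prrx1 (0.048). Zeb2 (limma adjusted p = 0.081), Zeb1 (0.089), Snai2 (0.14) and Twist1 (0.27) did not pass.

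Fn1, Vim and Snai1 held in every alternative, with their highest adjusted limma p at 0.028, 0.026 and 0.037. Twist2 did not pass without tumor 8 (limma adjusted p = 0.23), without tumor 11 (0.053) and with no filter on low genes (0.068). Cdh2 did not pass without tumor 9 (limma adjusted p = 0.054), 11 (0.078) or 12 (0.071), with 0.1 added to the TPM (0.077) or with no filter (0.099). Prrx1 did not pass without any one of tumors 2, 3, 4, 8, 9, 11 and 12 (limma adjusted p between 0.051 and 0.21), and it did not pass with 0.1 added (0.057), with no filter (0.15) or without a trend in the prior variance (0.055). Zeb2 and Twist1 passed only without tumor 10 (limma adjusted p = 0.046 and 0.033). Twist1 varied within mice, with an SD of 1.61 on the log2(TPM + 1) scale, as much as between them, with an SD of 1.63. Fn1, by contrast, had 0.42 within and 2.47 between mice.

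Tumors of a mouse could differ widely in a single gene. Tumor 10 had 1.79 TPM of Twist1, whereas tumors 11 and 12 from the same animal had 21.7 and 23.0 TPM. Prrx1 followed it at 3.69, 11.1 and 12.5 TPM in tumors 10, 11 and 12, and Snai2 at 0.811, 2.16 and 3.15 TPM. Between tumors 11 and 12 none of the 10 genes was 2-fold apart on the log2(TPM + 1) scale, against 5.17% of all genes, and the median absolute difference was 0.17 over the 10 and 0.22 over all genes. Tumors 10 and 12 had 3 genes (Snai2, Twist1 and Prrx1) at least 2-fold apart, against 12.1% of all genes, and tumors 10 and 11 had 2 (Twist1 and Prrx1), against 9.97%. The median level of the fibroblast genes was 52.3, 37.3 and 60.2 TPM in tumors 10, 11 and 12, and the part of fibroblast RNA in these differences was not tested.

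Tumors 3 and 4 came from another mouse, and tumor 4 was the higher one for all 10 genes, against 43.9% of all genes. On the log2(TPM + 1) scale 6 of the 10 were at least 2-fold apart, against 3.87% of all genes, and the median absolute difference was 1.08 over the 10 and 0.19 over all genes. The 6 were Zeb1 (4.03 and 13.3 TPM), Snai1 (11.4 and 24.4 TPM), Twist1 (1.89 and 8.60 TPM), Twist2 (0.930 and 4.83 TPM), Prrx1 (4.80 and 13.8 TPM) and Cdh2 (0.225 and 1.66 TPM). Vim (589 and 917 TPM) and Fn1 (415 and 505 TPM) were closer. The median level of the fibroblast genes was 70.6 TPM in tumor 3 and 215 TPM in tumor 4, and the part of fibroblast RNA in this difference was not tested.

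**Figure D5:**
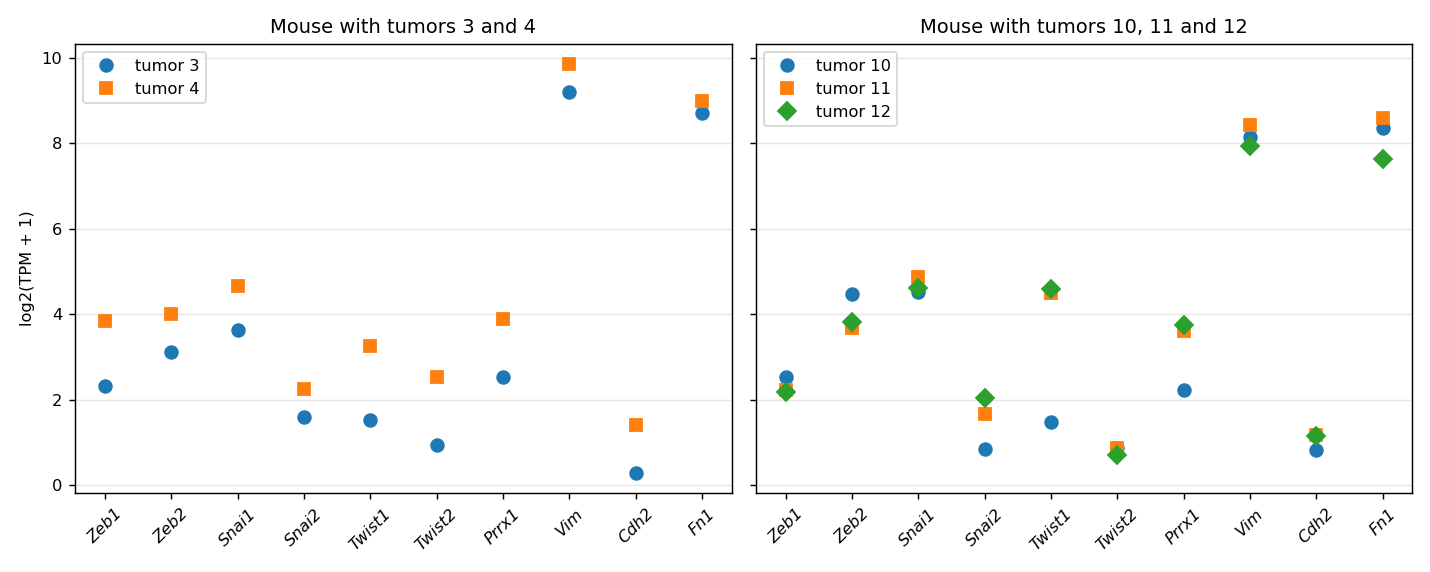
Level of each of the 10 genes in log2(TPM + 1) (y axis) in the tumors of the 2 mice with several tumors (left, tumors 3 and 4; right, tumors 10, 11 and 12); each point is a tumor. Tumor 4 lies above tumor 3 for all 10 genes, and on the right Twist1 is 3.02 to 3.10 higher in tumors 11 and 12 than in tumor 10.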

How the data were processed

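RNA of 12 mammary tumors from 9 mice was sequenced as stranded, paired-end mRNA libraries. The deposited values are TPM, with 1 value per Ensembl gene and tumor, which the authors made by trimming adapters, aligning to the murine GRCm38 transcriptome with HISAT and quantifying with StringTie 2.1.6. How transcripts were summed to genes is not stated, the labels name no batch, and depth is unknown, so no counting interval is given.

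Here log2(TPM + 1) was computed for all 47593 genes and genes averaging at least 1 TPM were kept. Raised and lowered mean a difference of at least 1 on this scale (2-fold) from the median of the other 11 tumors. Differences between mice were tested with limma 3.58.1 (moderated F with a trend, R 4.3.3) and relations with lists by exact permutation over 9 mice, both adjusted over all genes. The permutation was coded in numpy 2.4.6, with the ranks for rho from scipy 1.17.1. The plan had adjusted the relations over the 30 alone, which also called none. The limma p-values set differences between mice against the spread within the 2 mice that gave 5 of the tumors. The permutation p-values concern the pairing of values over the 9 mice. The limma test and the permutation test were also run on simulated data. The text names the 10 genes, the genes of the 15 lists drawn in the plot by list, Brca1 and Trp53, and the 3 genes most like each of the 10. The values of 1 gene of the TGF-beta list are not reported here. The members and lists were chosen with earlier results of these data known. Gene locations came from GENCODE vM21 (GRCm38) and promoters from RefSeq (GRCm38.p6). The alternatives are given in the closing section.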

Additional observations from a re-analysis of the deposited data

Results flagged for a closer look

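Each of the 10 genes was examined over the 9 mice, with the tumors of a mouse averaged, for a mouse far from the others by Dixon's ratio, which chance passes in about 1 of 20 groups. Only Twist2 did, in a tumor that had been singled out with earlier results known, so this is a description and not a test: the mouse of tumor 8 was at 6.04 on the log2(TPM + 1) scale and the next mouse at 1.79, and this gap was 0.70 of the whole range, above the critical value of 0.493. Prrx1 was the nearest to passing, with a ratio of 0.47 (7.44 in the mouse of tumor 8, 4.73 in the next).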

How the results depend on the processing

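The counts of genes highest (8) and raised (9) in tumor 8 did not change without tumor 2, with mice averaged first or with TPM rescaled without mitochondrial genes, nor did the count raised with 0.1 in place of 1 added to the TPM, and 6 genes were raised 4-fold. Of those 6, Twist1 was not raised 4-fold without tumor 2, at a difference of 1.71. Of the 10 genes, 6 differed between mice by limma (42.9% of all genes did), 3 with no filter on low genes (29.1%), 4 with 0.1 added (44%), and 3 to 8 with each tumor left out. The share of all genes called also moved, to 23.9% without tumor 11 (3 members), 62.1% without tumor 10 (8 members) and 12.3% without tumor 3 (5 members). With p adjusted over the 30 relations alone, none was called over 9 mice and 0 to 2 were with each mouse left out (2 without the mouse of tumor 2). Adjustment over all genes, which called none over 9 mice, was not run with a mouse left out. Of the 30 most alike genes, 8 remained among the closest 3 by Spearman correlation, 16 without tumor 2 and 9 without tumor 8. The settings without tumor 8 for likeness and the adjustment over all genes were chosen after seeing the data. No paired analysis was possible because the design holds a single condition. TPM gives no depth, so values under 1 TPM, most of those of Twist2 and several of Snai2 and Cdh2, have an unknown counting error.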
